A study of Mus musculus with 4 samples.

Results

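Chemokine genes of mouse osteocyte-like cells are described here through 10 genes, *Cxcl10*, *Ccl5*, *Cxcl16*, *Cxcl1*, *Cxcl3*, *Cxcl5*, *Cxcl12*, *Ccl2*, *Ccl7* and *Cx3cl1*, which were found by name among the 55450 genes of the count table. Each name occurred once in the table. The genes were selected on the difference between loaded and unloaded cells, since earlier results of the same libraries were known when they were named. Their values under loading are therefore given as a description, and the number of them called by a test is given only beside the share of all genes called. Of the 10 genes, 3 are grouped as interferon-driven (*Cxcl10*, *Ccl5* and *Cxcl16*) and 7 as other members.

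Chemokines are small proteins, mostly secreted, that bind G protein-coupled receptors and direct the movement of leukocytes. Interferons induce some of them through STAT2 and the interferon regulatory factors, which are transcription factors, while inflammatory stimuli induce others mainly through NF-kB, and several promoters respond to both. In bone, chemokines made by stromal cells and cells of the osteoblast lineage retain hematopoietic cells in the marrow and attract monocytes, from which osteoclasts form.

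The study asked how mechanical loading alters gene expression in osteocytes, with RNA-seq of MLO-Y4 cells of WT genotype, cultured in the same medium in both groups. In the loaded group, cells of 2 samples, grown on collagen-coated UniFlex plates with a silicone rubber base, were stretched in all directions for 12 h at 0.5 Hz and 20% strain. In the unloaded group, cells of 2 samples, grown on Corning culture plates, stood for 12 h in the incubator of the stretching device without stretch. Plate type thus went with the group, and the parts of plate and stretch in any difference cannot be told apart.

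MLO-Y4 is 1 clonal, immortalised line, derived from a mouse that carried the SV40 large T antigen under the osteocalcin promoter, so it is a model of the osteocyte and not primary bone. The total was 28941994 counts in unloaded replicate 1, 30058313 in unloaded replicate 2, 32185693 in loaded replicate 1 and 30337236 in loaded replicate 2. Nothing in the labels states that replicates came from separately grown cultures, so the p-values below measure only the spread between these samples. Levels are counts scaled to a common library size after TMM normalization (CPM), and a count of 0 allows up to 3 counts, or between 0.0932 and 0.104 CPM in these libraries. Such floors, and the intervals below, cover counting error only.

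The label of the cells was compared with 12 genes of the osteocyte lineage. Of these, 8 passed the filter on low counts, and the most abundant was *Col1a1*, which encodes a chain of type I collagen, at 993 and 1032 CPM in unloaded and 931 and 976 CPM in loaded cells. The summed level of the list was 1730.5 and 1770.3 CPM in unloaded and 1836 and 1799 CPM in loaded cells. *Pdpn*, a marker of early osteocytes, *Phex* and *Runx2* were also present, and the lowest value among them was 43.7 CPM, of *Phex* in unloaded replicate 1. The markers of mature osteocytes were at or near 0. *Sost* had 4 counts in loaded replicate 1 and 0 elsewhere, *Mepe* had 0 in all libraries, *Fgf23* had 4 and 9 counts in unloaded cells and 0 in loaded cells, and *Dmp1* had between 12 and 14 counts. The osteoblast genes *Bglap*, *Alpl* and *Sp7* likewise had at most 25 counts in any library. None of the 8 tested genes passed edgeR's adjusted p threshold of 0.01 (1 had an unadjusted p under 0.05, against 2333 of 16269 genes). With DESeq2, 1 passed, against 2.91% of the 12484 genes that had its adjusted p. That base holds for this share throughout, and *Dmp1*, *Sp7* and *Alpl* had no adjusted p from DESeq2. *Pdpn* had a log2 fold change of 0.59 (SE 0.0703, edgeR adjusted p = 0.0334) with both loaded libraries higher.

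*Cxcl10* encodes a ligand of CXCR3 that attracts activated T cells. Its level was 50.9 and 52.4 CPM in unloaded replicates 1 and 2, and 17.3 and 18.5 CPM in loaded replicates 1 and 2. Both loaded libraries lay far below both unloaded libraries, and the replicates of each group lay close together. The means were 51.6 ± 1.04 CPM (SD, n = 2) and 17.9 ± 0.798 CPM (SD, n = 2), so that the loaded level was 34.7% of the unloaded level. The log2 fold change of loaded over unloaded cells was -1.53, with a standard error (SE) of 0.0993. In bulk RNA, fewer cells that express a gene and less RNA per cell cannot be told apart, here and below.

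*Ccl5* encodes a chemokine that attracts T cells and monocytes. It was measured at 65.6 and 75.2 CPM in unloaded cells and at 41.5 and 37.8 CPM in loaded cells. The groups did not overlap, and the distance between them was larger than the distance between replicates. The loaded mean was 56.3% of the unloaded mean, a log2 fold change of -0.83 (SE 0.114). *Cxcl16* encodes a chemokine anchored in the membrane, which is the ligand of CXCR6 and also a scavenger receptor. Its values were 6.23 and 6.86 CPM in unloaded cells and 3.29 and 3.72 CPM in loaded cells. Here too both loaded libraries were the lower ones, and the replicates of each group lay close together. The log2 fold change of *Cxcl16* was -0.90 (SE 0.215).

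**Figure D1:**
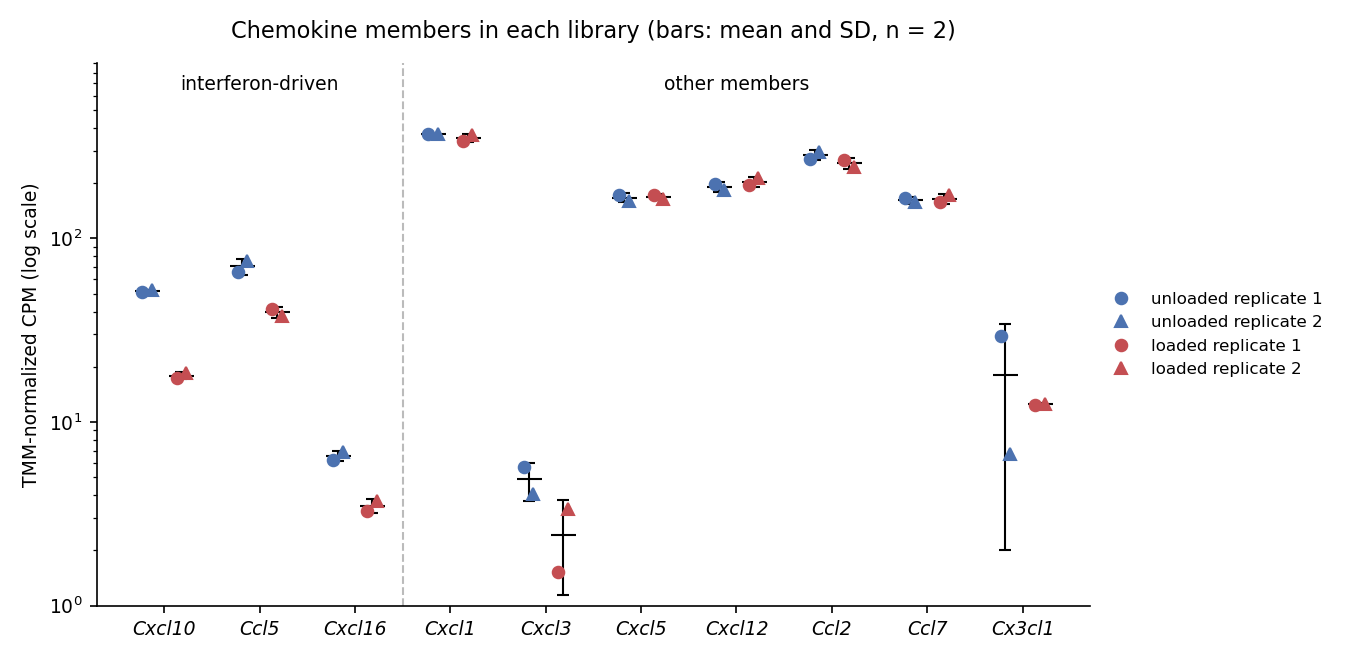
TMM-normalized CPM (log axis) of the 10 chemokine members in each of the 4 libraries, with points for single libraries and black bars for the mean and SD of each group. The loaded points lie below the unloaded points for *Cxcl10*, *Ccl5* and *Cxcl16*, lie close to them for the abundant other members, and fall between the unloaded points for *Cx3cl1*.

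Some reads of *Cxcl10* and *Cxcl16* cannot be assigned without strand, and the sources do not state whether the counting used it. *Cxcl10* shares 133 bp of exon, or 5.91% of its exon length, with *Art3* on the opposite strand, and *Cxcl16* shares 552 bp, or 18.27%, with *Zmynd15* on the opposite strand. These neighbours were named after their values were seen. *Art3* had 3 and 5 counts in unloaded and 0 and 5 counts in loaded cells, against at least 550 counts of *Cxcl10* in each library. *Zmynd15* had 32 and 25 counts in unloaded and 8 and 33 counts in loaded cells, against at least 106 counts of *Cxcl16*. Reads from each gene and its antisense partner cannot be told apart without strand.

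The promoters of members were compared because *Cxcl10* and the members *Cxcl1* and *Cxcl3* lie on the same chromosome but were grouped apart. The RefSeq promoter table (build GRCm38.p6, 250 bases before to 50 bases after the start of each gene) held 5 of the 10 members, *Cxcl10*, *Cxcl1*, *Cxcl3*, *Cxcl12* and *Cx3cl1*, and no entry for *Ccl5*, *Cxcl16*, *Cxcl5*, *Ccl2* or *Ccl7*. Both strands were searched for the core of the interferon-stimulated response element (GAAA, any 2 bases, GAAA) and for the NF-kB consensus, whose matches on opposite strands may overlap. Capitals mark every match, and the sequences run 5′ to 3′ on the strand of the gene. *Cxcl10* is on the minus strand (chr5:92348840-92349139), *Cxcl1* on the plus strand (chr5:90890995-90891294) and *Cxcl3* on the plus strand (chr5:90785851-90786150).
Cxcl10: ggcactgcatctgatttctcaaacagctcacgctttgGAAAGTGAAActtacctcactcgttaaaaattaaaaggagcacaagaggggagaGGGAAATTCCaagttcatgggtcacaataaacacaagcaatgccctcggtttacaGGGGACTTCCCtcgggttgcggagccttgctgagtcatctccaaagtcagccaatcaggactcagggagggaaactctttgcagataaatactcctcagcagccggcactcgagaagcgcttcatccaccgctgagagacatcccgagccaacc
Cxcl1: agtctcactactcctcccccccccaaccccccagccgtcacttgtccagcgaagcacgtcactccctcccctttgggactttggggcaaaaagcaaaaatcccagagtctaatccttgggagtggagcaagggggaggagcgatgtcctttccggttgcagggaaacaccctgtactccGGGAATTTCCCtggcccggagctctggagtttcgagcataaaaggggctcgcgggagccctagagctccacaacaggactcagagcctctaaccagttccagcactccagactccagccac
Cxcl3: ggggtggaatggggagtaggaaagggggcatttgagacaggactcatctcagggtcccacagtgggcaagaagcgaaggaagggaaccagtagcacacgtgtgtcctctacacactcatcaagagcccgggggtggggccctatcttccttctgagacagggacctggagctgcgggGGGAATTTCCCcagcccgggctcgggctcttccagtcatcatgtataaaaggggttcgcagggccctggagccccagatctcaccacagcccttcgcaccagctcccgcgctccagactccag

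The window of *Cxcl10* held 1 match to the response element core, beginning 213 bases before the start. It also held matches to the NF-kB consensus at 3 places, beginning 159, 104 and 103 bases before the start, of which the last pair overlap. The window of *Cxcl1* held overlapping NF-kB matches that began 71 and 70 bases before the start, and that of *Cxcl3* held overlapping matches that began 73 and 72 bases before it. Neither window held the response element core, and the windows of *Cxcl12* and *Cx3cl1* held neither motif. The window of *Cxcl9*, a ligand gene outside the members that lies beside *Cxcl10*, held neither motif as well. Among 32851 promoters of the same length, 3.44% held the response element core, 8.46% held the NF-kB consensus and 0.247% held both. A match describes the letters of the window and shows no binding of a factor in these cells.

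*Cxcl1*, *Cxcl3* and *Cxcl5* encode ligands of CXCR2 that attract neutrophils. *Cxcl1* was measured at 371 and 369.6 CPM in unloaded cells and at 341 and 364 CPM in loaded cells. Both loaded libraries were lower, but loaded replicate 2 differed from the unloaded libraries by less than it differed from loaded replicate 1. The log2 fold change was -0.07 (SE 0.0616), or -0.02 without loaded replicate 1 and -0.12 without loaded replicate 2. *Cxcl5* was measured at 173 and 160.3 CPM in unloaded and 173 and 165 CPM in loaded cells, giving a log2 fold change of 0.02 (SE 0.0727). Its groups overlapped, the means differed by less than the replicates did, and the sign turned without unloaded replicate 2 (-0.04) or loaded replicate 1 (-0.01).

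*Cxcl3* was measured at 5.68 and 4.06 CPM in unloaded cells and 1.52 and 3.36 CPM in loaded cells. Both loaded libraries were lower, and they lay farther apart from each other than loaded replicate 2 lay from unloaded replicate 2. The log2 fold change was -1.00 (SE 0.42). Its size rested on single libraries, since it was -1.68 without loaded replicate 2 and -0.53 without loaded replicate 1. Of the 50-base stretches in its transcripts, 4.293% also occur in transcripts of other genes, *Cxcl2* among them, so a small part of its reads is of uncertain origin.

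*Cxcl12* encodes the ligand of CXCR4 and ACKR3 that retains hematopoietic stem cells in the marrow. Its values were 199 and 183 CPM in unloaded cells and 195 and 213 CPM in loaded cells. The groups overlapped, and the log2 fold change of 0.10 (SE 0.079) became 0.03 without unloaded replicate 2 or loaded replicate 2, 0.17 without unloaded replicate 1 and 0.16 without loaded replicate 1. *Ccl2* and *Ccl7* encode ligands of CCR2 that attract monocytes. *Ccl2* was measured at 272 and 297 CPM in unloaded cells and at 269 and 244 CPM in loaded cells. The loaded libraries were both lower, yet loaded replicate 1 lay close to unloaded replicate 1, and the log2 fold change of -0.15 (SE 0.0791) was -0.08 without unloaded replicate 2 or loaded replicate 2. *Ccl7* was measured at 167 and 157 CPM in unloaded and 158 and 173 CPM in loaded cells, with overlapping groups and a log2 fold change of 0.03 (SE 0.0775). Its sign turned without unloaded replicate 2 (-0.02) or loaded replicate 2 (-0.04).

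*Cx3cl1* encodes fractalkine, a chemokine that is anchored in the membrane, holds leukocytes at the cell surface and is released by shedding. Its values were 29.3 and 6.67 CPM in unloaded cells and 12.4 and 12.6 CPM in loaded cells. The unloaded libraries lay on either side of the loaded ones. They differed from each other by 4.4-fold, while the loaded libraries differed by 1.02-fold. Of 9702 genes with at least 10 CPM in unloaded cells, 22, *Cx3cl1* included, differed at least this much between the unloaded libraries. This count was made after the values of *Cx3cl1* were seen. The log2 fold change of -0.52 (SE 0.6) had no fixed direction, being 0.91 without unloaded replicate 1 and -1.23 without unloaded replicate 2.

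Across the 10 members, all of which passed the filter on low counts, 6 were lower in both loaded libraries than in both unloaded libraries, 4 overlapped and 0 were higher. Among all 16269 tested genes, 24.5% were lower in this sense and 22.1% were higher. The 6 were the interferon-driven members with *Cxcl1*, *Cxcl3* and *Ccl2*. The median log2 fold change was -0.90 for the interferon-driven members and -0.07 for the other members, against -0.0089 over all tested genes, whose interquartile range was -0.20 to 0.16. The direction of the median of the other members depended on a single library, being 0.08 without unloaded replicate 1. The difference between these sets of members was not tested, because the loading contrast was known when they were chosen.

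With edgeR's test at an adjusted p under 0.01, 1 of the 10 members was called (*Cxcl10*), and 0.0983% of all tested genes were called, 2 higher and 14 lower in loaded cells. At an adjusted p under 0.05, 2 members were called (*Cxcl10* and *Ccl5*) and 0.904% of all genes, and 2333 of the 16269 genes had an unadjusted p under 0.05. With DESeq2 at 0.01, the same 2 members were called and 2.91% of the genes with an adjusted p. Nothing is read from these counts of members. Without loaded replicate 1 or loaded replicate 2, edgeR called 0 genes (2225 and 2086 had an unadjusted p under 0.05), so the call of *Cxcl10* was lost at log2 fold changes of -1.48 and -1.58. Without unloaded replicate 1 or unloaded replicate 2 it called 50 and 58 genes, against 16 with all libraries (DESeq2 was run on all libraries only). With no filter on low counts it also called 0 genes (2435 had an unadjusted p under 0.05, and DESeq2 called 363), with *Cxcl10* at -1.53. The call of *Ccl5* at 0.05 was lost without unloaded replicate 2, loaded replicate 1 or loaded replicate 2, at log2 fold changes of -0.73, -0.89 and -0.76, and with no filter on low counts, at -0.83.

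Levels of different genes were compared per kilobase of annotated exon. In unloaded cells the highest was *Ccl2*, at 250.2 ± 15.7 CPM per kb (SD, n = 2). *Ccl7* and *Cxcl1* followed at 202 ± 8.88 and 197 ± 0.542 CPM per kb, which did not differ beyond their spread. Below *Cxcl5*, at 89.5 ± 4.91 CPM per kb, stood *Ccl5* at 73.3 ± 7.05 CPM per kb, level with the ligand gene *Ccl9*. *Cxcl12* and *Cxcl10* likewise overlapped in unloaded cells, at 23.4 ± 1.44 and 22.9 ± 0.463 CPM per kb. *Cx3cl1*, *Cxcl16* and *Cxcl3* were the lowest members, at 4.58 ± 4.07, 2.17 ± 0.148 and 1.39 ± 0.328 CPM per kb. In loaded cells *Cxcl12* stood at 25 ± 1.5 CPM per kb and *Cxcl10* at 7.94 ± 0.355 CPM per kb, so that these neighbours in the order were far apart, and *Ccl5* stood at 41.3 ± 2.76 CPM per kb.

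Shares and ratios within a library do not depend on the scaling of libraries. All 40 chemokine ligand genes in the table together held 46487 and 47535 counts in unloaded and 46239 and 43854 counts in loaded cells, which was 0.161% and 0.158% of the unloaded and 0.144% and 0.145% of the loaded libraries. The 10 members took 83.7% and 83.6% of these ligand counts in unloaded and 84.6% and 83.9% in loaded cells. Of all ligand counts, the interferon-driven members took 7.67% and 8.57% in unloaded and 4.34% and 4.07% in loaded cells. The other members took 76.1% and 75.1% in unloaded and 80.2% and 79.9% in loaded cells. The makeup of the ligand pool thus differed between the groups in both libraries of each, with a smaller interferon-driven share under loading, although the members as a whole kept a similar share.

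*Cxcl10* made up 3.18% of ligand counts (95% Wilson interval 3.02 to 3.34) in unloaded replicate 1 and 3.34% (3.18 to 3.5) in unloaded replicate 2. In loaded replicate 1 it made up 1.21% (1.11 to 1.31), and in loaded replicate 2 it made up 1.25% (1.15 to 1.36). The ratios that follow were paired after the values were seen. Counts of *Cxcl10* per count of *Cxcl1* were 0.137 and 0.142 in unloaded and 0.0509 and 0.0507 in loaded cells. For *Ccl5* over *Ccl2* the ratio was 0.241 and 0.253 in unloaded and 0.154 and 0.155 in loaded cells. For *Cxcl16* over *Cxcl12* it was 0.0313 and 0.0376 in unloaded and 0.0168 and 0.0175 in loaded cells. These 3 ratios were lower in both loaded libraries. Among the other members, the ratio of *Ccl2* to *Ccl7* (1.63 and 1.9 in unloaded, 1.71 and 1.41 in loaded cells) overlapped between the groups. The ratio of *Cxcl1* to *Cxcl3* did not, at 65.3 and 91.1 in unloaded and 224 and 109 in loaded cells, so it was higher in both loaded libraries. The ratio of *Cxcl10* to *Cxcl11*, a ligand gene outside the members, was also higher in both, at 16.9 and 14.9 in loaded against 13.9 and 9.92 in unloaded cells. The ratio of *Cxcl10* to *Ccl5* was itself lower under loading, at 0.417 and 0.488 against 0.776 and 0.697, so the interferon-driven members did not differ by a common factor.

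**Figure D2:**
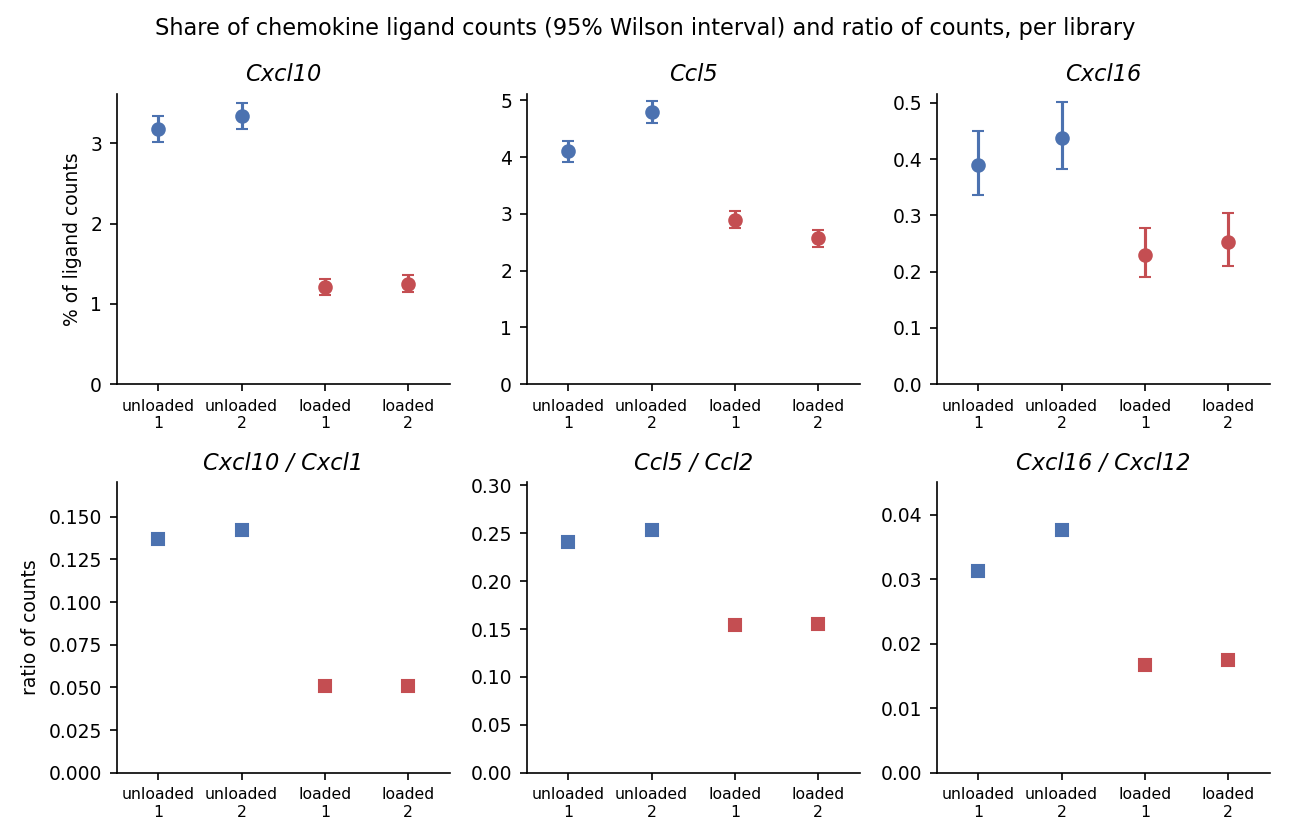
Percentage of chemokine ligand counts taken by each interferon-driven member, with 95% Wilson intervals (upper row), and the ratio of its counts to those of another member (lower row), in each of the 4 libraries. In all panels the loaded libraries (red) lie below the unloaded libraries (blue), as for *Cxcl10* at 1.21% and 1.25% against 3.18% and 3.34%.

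Of 31 further chemokine ligand genes listed, 30 were in the table, 14 of these had no count in any library, and 11 passed the filter. None of the 11 passed edgeR's test at 0.01 (2 had an unadjusted p under 0.05), and 1 passed DESeq2's (*Cxcl11*), where 0.0983% of all tested genes passed edgeR's (2333 of 16269 had an unadjusted p under 0.05) and 2.91% passed DESeq2's. Their median log2 fold change was -0.45, 9 were negative, and 6 of the 11 were lower in both loaded libraries (24.5% of all tested genes). *Cxcl11* and *Cxcl9*, which encode further ligands of CXCR3, had low levels. *Cxcl11* was measured at 3.65 and 5.28 CPM in unloaded and 1.02 and 1.24 CPM in loaded cells. The loaded mean was 25.4% of the unloaded mean, with a log2 fold change of -1.98 (SE 0.327, edgeR adjusted p = 0.0689, DESeq2 adjusted p = 0.00622). *Cxcl9* was measured at 4.37 and 3.73 CPM in unloaded and 1.8 and 3.02 CPM in loaded cells, giving a log2 fold change of -0.75 (SE 0.33, edgeR adjusted p = 0.376), which was -0.42 without loaded replicate 1 and -1.17 without loaded replicate 2.

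*Ccl9*, the most abundant ligand gene outside the members, had 230.3 and 225 CPM in unloaded and 198 and 209 CPM in loaded cells. Its log2 fold change was -0.16 (SE 0.0649, edgeR adjusted p = 0.334), with both loaded libraries slightly lower. *Ccl25*, a thymic and intestinal T cell chemokine, and *Ppbp*, a CXCR2 ligand best known from platelets, overlapped between the groups, with log2 fold changes of 0.10 and -0.04. The remaining 6 ligand genes, *Ccl4*, *Ccl6*, *Ccl8*, *Ccl20*, *Ccl28* and *Pf4*, had at most 63 counts in any library and log2 fold changes between -1.89 and 0.07, with standard errors of at least 0.494. None of these 6 had an adjusted p from DESeq2. The direction was not fixed for *Ccl8*, *Ccl20*, *Ccl25*, *Ccl28* and *Ppbp*, which reversed when unloaded replicate 2 was left out (to 6.49, 0.23, -0.02, -0.07 and 0.05), where *Ccl8* had no count in the unloaded library left. Without loaded replicate 1 *Ccl28* and *Ppbp* had -0.63 and 0.00, and without loaded replicate 2 *Ccl8* and *Ccl25* had 0.26 and -0.10.

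**Figure D3:**
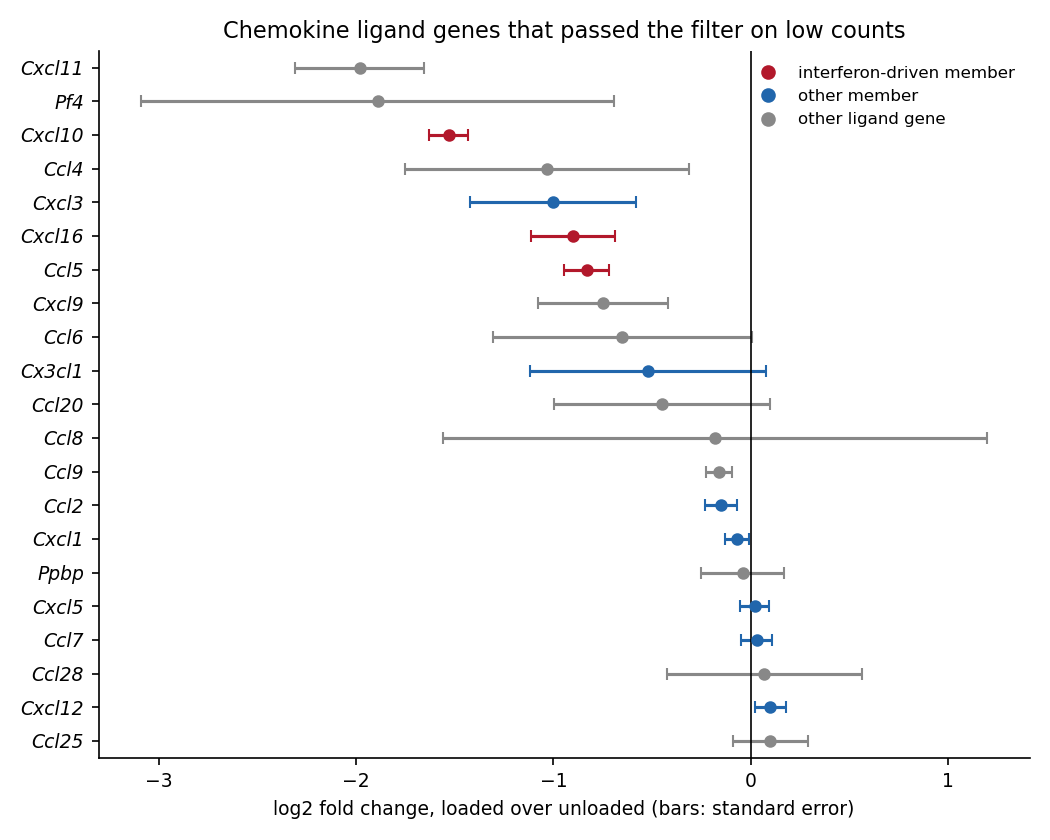
Log2 fold change (loaded over unloaded, bars for the standard error) of the 21 chemokine ligand genes that passed the filter on low counts, ordered by value. The interferon-driven members (red) lie between -1.53 and -0.83, and the abundant other members (blue) lie close to 0.

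Chemokine genes lie in clusters, and members of both kinds shared chromosomes. Genes were put in the same cluster when the gap between neighbours was at most 500000 bp, a limit set after the values were seen. On chromosome 5, *Cxcl5*, *Ppbp*, *Pf4*, *Cxcl3*, *Cxcl15*, *Cxcl1* and *Cxcl2* lay between 90759360 and 90905938 (GRCm38). *Cxcl9*, *Cxcl10* and *Cxcl11* lay 1415409 bp farther along, between 92321347 and 92365485. In the latter cluster all 3 genes, of which *Cxcl10* was among those selected, had lower values in both loaded libraries (24.5% of all tested genes did), with log2 fold changes of -0.75, -1.53 and -1.98 in gene order. In the former, *Cxcl5*, *Ppbp* and *Cxcl1* had log2 fold changes of 0.02, -0.04 and -0.07, while the weakly expressed *Cxcl3* and *Pf4* had -1.00 and -1.89. *Pf4* had 0 counts in loaded replicate 2, and its log2 fold change was -0.95 without that library and -6.66 without loaded replicate 1, where no loaded count was left and the value is no bound.

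On chromosome 11, *Ccl2* and *Ccl7* began a cluster with *Ccl11*, *Ccl12*, *Ccl8* and *Ccl1*, and of these 4 neighbours only *Ccl8* had any counts, at most 25 in a library. *Ccl5* lay 1220088 bp beyond that cluster, beside *Ccl9*, *Ccl6*, *Ccl3* and *Ccl4*. *Ccl5* and *Ccl9*, 42401 bp apart, differed in their values, with log2 fold changes of -0.83 (SE 0.114) and -0.16 (SE 0.0649). *Ccl6* and *Ccl4*, with at most 26 counts in any library, had -0.65 (SE 0.656) and -1.03 (SE 0.72), which became -0.09 and -0.62 without loaded replicate 1, -1.55 and -1.60 without loaded replicate 2 and, for *Ccl4*, -0.57 without unloaded replicate 2. All 4 genes of this cluster that passed the filter were lower in both loaded libraries, as were 24.5% of all tested genes. *Cxcl16* on chromosome 11 and *Cxcl12* on chromosome 6 had no other listed ligand gene within 500000 bp, and *Cx3cl1* lay on chromosome 8 between *Ccl22* and *Ccl17*, which did not pass the filter.

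**Figure D4:**
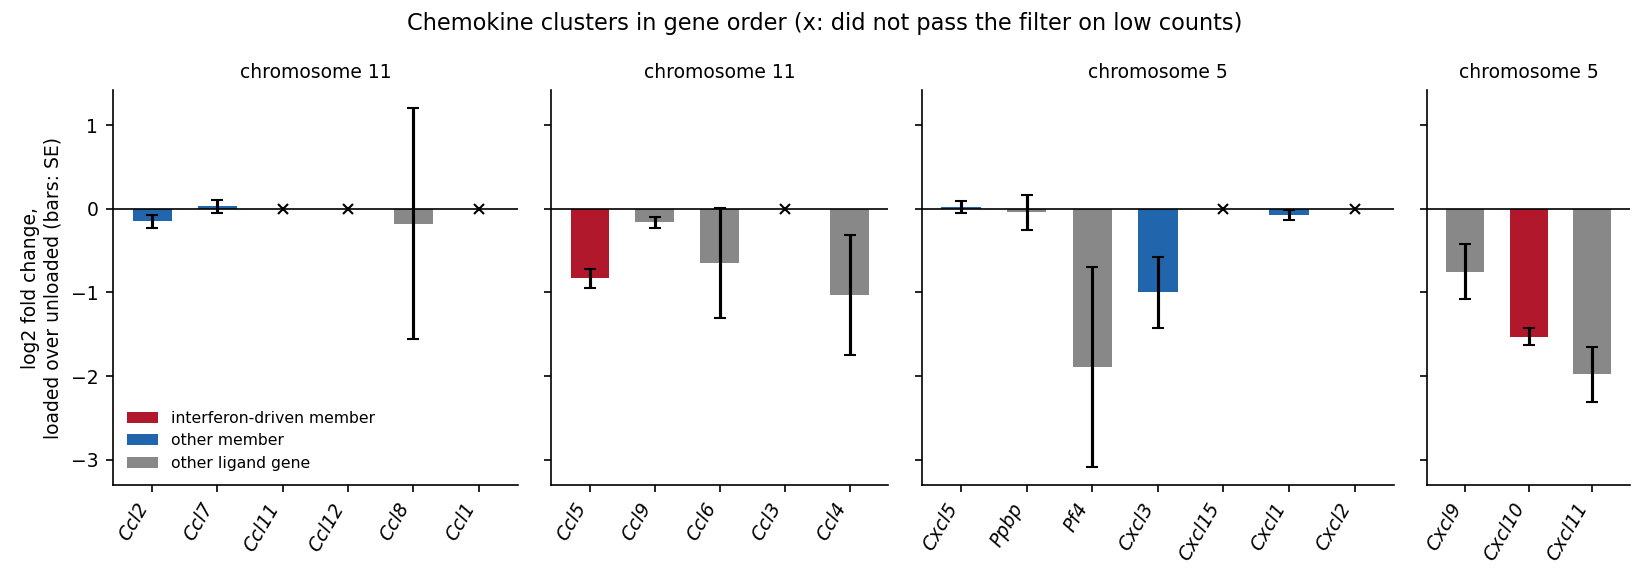
Log2 fold change (loaded over unloaded, bars for the standard error) of chemokine ligand genes in their order along 4 clusters on chromosomes 11 and 5, with crosses for genes that did not pass the filter on low counts. The *Cxcl9*, *Cxcl10* and *Cxcl11* bars are all below 0, whereas *Ccl2*, *Ccl7*, *Cxcl5* and *Cxcl1* lie near 0.

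The receptors of these ligands were mostly absent. Of 23 chemokine receptor genes, 9 had no count in any library, *Cxcr3* and *Cxcr2* among them, and 6 passed the filter. The receptor *Cxcr4* had 5 counts in unloaded replicate 2 and 0 elsewhere. The most abundant was *Ackr3*, a scavenging receptor of CXCL12, at 28.5 and 31.2 CPM in unloaded and 24.6 and 27 CPM in loaded cells. It had a log2 fold change of -0.21 (SE 0.11, edgeR adjusted p = 0.451), and both loaded libraries were lower. *Ccr2*, the receptor of CCL2 and CCL7, had 10.9 and 7.69 CPM in unloaded and 10.8 and 9.97 CPM in loaded cells, which overlapped. *Ccr10* also overlapped, and the directions of *Ccr2* and *Ccr10* turned to -0.07 without unloaded replicate 2 and to -0.19 without unloaded replicate 1, from 0.16 and 0.06 (and *Ccr10* to -0.03 without loaded replicate 1). None of the 6 passed edgeR's test (1 had an unadjusted p under 0.05, as had 2333 of all 16269), and 0 passed DESeq2's (2.91% of all genes did). That gene was *Ccrl2*, named after its values were seen, with 33 and 24 counts in unloaded and 9 and 5 counts in loaded cells and a log2 fold change of -2.08 (SE 0.629, edgeR adjusted p = 0.219).

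The listed genes for STAT2 and the interferon regulatory factors had negative log2 fold changes. All 7 listed genes (*Stat2*, *Irf1*, *Irf2*, *Irf3*, *Irf7*, *Irf8* and *Irf9*) had lower values in both loaded libraries, as did 24.5% of all tested genes, with a median log2 fold change of -0.79. None passed edgeR's adjusted p of 0.01 (4 had an unadjusted p under 0.05, and 4 passed with DESeq2, all lower), and 3 passed 0.05, where 2.91% of genes passed with DESeq2, 0.904% passed 0.05 with edgeR and 2333 of 16269 had an unadjusted p under 0.05. *Irf2* and *Irf3* passed with neither tool, and *Irf8* did not pass with edgeR and had no adjusted p from DESeq2. *Irf7*, which amplifies the type I interferon response, was measured at 17.6 and 17.5 CPM in unloaded and 5.76 and 4.63 CPM in loaded cells. Its log2 fold change was -1.75 (SE 0.173, edgeR adjusted p = 0.0197). *Stat2* was measured at 64.6 and 64.7 CPM in unloaded and 34.6 and 39.4 CPM in loaded cells. Its log2 fold change was -0.81 (SE 0.106, edgeR adjusted p = 0.0378), close to that of *Ccl5*. *Irf9*, whose product binds the response element together with STAT2, had a log2 fold change of -0.79 (SE 0.108, edgeR adjusted p = 0.041). *Stat2* and *Irf9* no longer passed 0.05 with no filter on low counts (edgeR adjusted p = 0.0736 and 0.088), at -0.81 and -0.79. They also did not pass it with any library left out, at log2 fold changes of -0.90 to -0.71 and -0.82 to -0.75. *Irf7* did not pass it without loaded replicate 2, at -1.61. *Irf1*, an early activator of interferon-stimulated genes, was measured at 75.6 and 105 CPM in unloaded and 61.9 and 60.5 CPM in loaded cells, and differed by -0.56 on the log2 scale (SE 0.159, edgeR adjusted p = 0.193). That value rested on the unloaded libraries, being -0.31 without unloaded replicate 2 and -0.77 (edgeR adjusted p = 0.0411) without unloaded replicate 1. Lower interferon-stimulated genes were among the earlier results of these libraries, so this list is no independent support for the values of the members.

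Of the interferon genes, *Ifnb1* and *Ifng* were examined, and both had few counts. *Ifnb1* had 8 and 31 counts in unloaded and 4 and 0 counts in loaded cells, and *Ifng* had 2 counts in loaded replicate 2 and 0 elsewhere. Both loaded libraries thus held fewer *Ifnb1* counts than either unloaded library, at counts too low for the filter. The 4 interferon receptor genes were lower in both loaded libraries (24.5% of all tested genes were), with a median log2 fold change of -0.39. None passed edgeR's test (3 had an unadjusted p under 0.05, as had 2333 of 16269 genes), and 1 passed DESeq2's, as did 2.91% of genes. *Ifngr1*, a subunit of the receptor for interferon gamma, was measured at 37 and 48.5 CPM in unloaded and 17 and 25.1 CPM in loaded cells, giving a log2 fold change of -1.02 (SE 0.219, edgeR adjusted p = 0.127). *Ifnar2*, *Ifngr2* and *Ifnar1* had log2 fold changes of -0.50, -0.27 and -0.20.

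The NF-kB subunits and their inhibitors, 12 genes that all passed the filter, had a median log2 fold change of -0.25. Of these, 9 were lower and 1 was higher in both loaded libraries (24.5% and 22.1% of all tested genes), 0 passed edgeR's test (4 had an unadjusted p under 0.05), and 2 passed DESeq2's, against 0.0983% of all genes by edgeR (2333 of 16269 with an unadjusted p under 0.05) and 2.91% by DESeq2. *Nfkbia* and *Tnfaip3*, feedback inhibitors that NF-kB itself induces, had log2 fold changes of -0.51 (SE 0.0829, edgeR adjusted p = 0.0643) and -0.44 (SE 0.0869, edgeR adjusted p = 0.108). *Nfkbia* was measured at 213 and 227 CPM in unloaded and 163 and 145 CPM in loaded cells. Both of its loaded libraries were the lower ones. *Tnip1* and *Nfkb2* had log2 fold changes of -0.33 and -0.25.

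Among 10 further genes for cytokines, growth factors and adhesion molecules, 9 passed the filter and 1 was called lower by edgeR (2 by DESeq2, both lower), where 0.0983% of all tested genes were called by edgeR and 2.91% by DESeq2. Of the 9 genes, 6 were lower and 1 was higher in both loaded libraries (24.5% and 22.1% of all tested genes), and the median log2 fold change was -0.44. The higher gene was *Il6*, named after its values were seen, at 0.792 and 1.09 CPM in unloaded and 2.29 and 1.78 CPM in loaded cells. Neither *Il6* nor *Il1a*, also named after its values were seen, had an adjusted p from DESeq2. *Vcam1*, which encodes an adhesion molecule for leukocytes, was measured at 269 and 274 CPM in unloaded and 120.3 and 135 CPM in loaded cells. It fell in loaded cells, with a log2 fold change of -1.09 (SE 0.078, edgeR adjusted p = 0.00813), lower in 2 of 2 loaded libraries. That call was lost without loaded replicate 1 (edgeR adjusted p = 0.0267), without loaded replicate 2 (0.0358) and with no filter on low counts (0.0182), at log2 fold changes of -1.01, -1.18 and -1.09 and within a range over the alternatives that reached down to 1.16e-26 with DESeq2. *Csf2* and *Icam1* had log2 fold changes of -1.41 (edgeR adjusted p = 0.0442) and -1.53 (edgeR adjusted p = 0.108). *Csf1*, the survival factor of osteoclast precursors and the most abundant gene of the list, was measured at 648 and 616 CPM in unloaded and 527 and 574 CPM in loaded cells, giving a log2 fold change of -0.20 (SE 0.0656, edgeR adjusted p = 0.255).

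Genes that act on chemokines outside the cell were examined next. The calls of these lists stand against 0.0983% of all tested genes by edgeR (2333 of 16269 with an unadjusted p under 0.05) and 2.91% by DESeq2. For shedding and cleavage, 5 of 7 listed genes passed the filter, 0 passed edgeR's test (1 had an unadjusted p under 0.05) and 0 passed DESeq2's. *Adam17*, a sheddase of CX3CL1, had a log2 fold change of -0.14, *Rhbdf1*, which governs its maturation, had -0.10, and the metalloproteinases *Mmp14* and *Mmp2* had 0.21 and -0.22. *Adam10*, the most abundant gene of the list and named after its values were seen, overlapped between the groups. It was measured at 119.6 and 184 CPM in unloaded and 112 and 214 CPM in loaded cells (log2 fold change 0.10, SE 0.326). For heparan sulfate, the glycan that holds chemokines at the cell surface, 11 of 12 genes passed the filter, 0 passed edgeR's test (3 had an unadjusted p under 0.05) and 1 passed DESeq2's, higher. This was *Gpc1*, a carrier protein of the glycan, at 187 and 186 CPM in unloaded and 246 and 261 CPM in loaded cells. Its log2 fold change was 0.45 (SE 0.0646, edgeR adjusted p = 0.0486, DESeq2 adjusted p = 2.64e-05). *Gpc1* did not pass 0.05 with no filter on low counts (edgeR adjusted p = 0.0924). With a library left out its log2 fold change lay between 0.40 and 0.49. The enzymes *Ext1* and *Ndst1* had -0.25 and 0.23, and the carrier *Sdc3* had -0.20.

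Of 8 genes for proteins that control the decay of messenger RNA, which limits many chemokine transcripts, all passed the filter. Of the 8, 0 passed edgeR's test (2 had an unadjusted p under 0.05, as had 2333 of all 16269). With DESeq2 1 passed, higher, as did 2.91% of genes with its adjusted p. *Zfp36l2* was measured at 201 and 205 CPM in unloaded and 256 and 254 CPM in loaded cells, giving a log2 fold change of 0.33 (SE 0.06, edgeR adjusted p = 0.0874). *Zfp36l1*, *Rc3h1* and *Khsrp* had log2 fold changes of 0.25, 0.16 and -0.09. The median of the list was -0.02, near that of all tested genes. *Actb*, the reference gene of the study's qPCR, differed by 0.03 on the log2 scale (edgeR adjusted p = 0.914), which turned to -0.05 without unloaded replicate 2 and to -0.09 without loaded replicate 2.

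**Figure D5:**
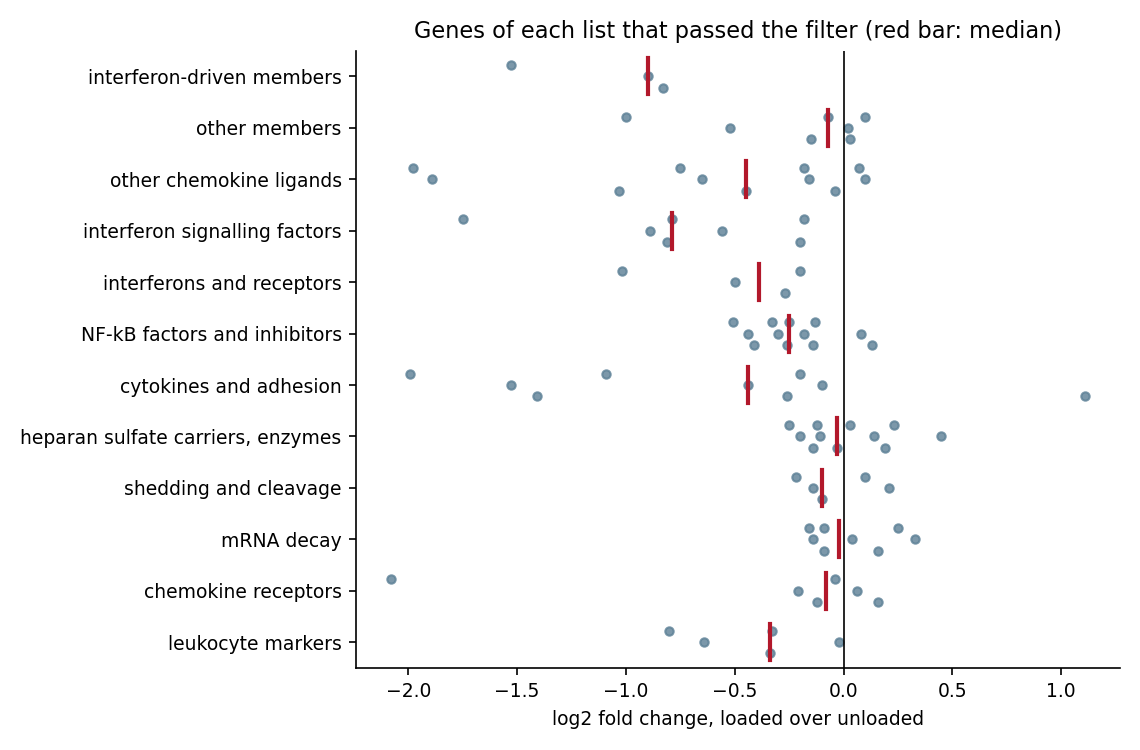
Log2 fold change (loaded over unloaded) of each gene that passed the filter on low counts, by list, with red bars for the median of the list. The medians are -0.90 for the interferon-driven members and -0.79 for the interferon signalling factors, against -0.07 for the other members and -0.02 for messenger RNA decay.

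Genes that followed the members most closely were found by the Euclidean distance of log2 CPM, centred over the 4 libraries, among genes of at least 10 CPM. The 3 nearest to *Cxcl10* were *Parp14*, *Car9* and *Irgm2*, at distances of 0.155, 0.213 and 0.235. The 3 nearest to *Ccl5* were *Cplx2*, *Slc25a51* and *Ltbp3*, at 0.0772, 0.0801 and 0.0891. The 3 nearest to *Cxcl16* were *Neurl3*, *Stat2* and *Helz2*, at 0.112, 0.127 and 0.139. All 9 had negative log2 fold changes, between -1.70 and -0.76, which follows from the way they were found. With 4 libraries, the distance mostly reflects the size of the difference between the groups.

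Since leukocytes make and answer chemokines, markers of other cell types were examined. Of 10 leukocyte markers, 5 passed the filter, and all 5 were lower in both loaded libraries (24.5% of all tested genes were). Of these, 0 passed edgeR's test (2 had an unadjusted p under 0.05, as had 2333 of all 16269) and 0 passed DESeq2's, where *Lyz2* and *Cd79a* had no adjusted p. The defining markers were at or near 0 in every library, with no count of *Cd3e* or *Tyrobp* and at most 4 counts of *Ptprc*, *Adgre1* or *Itgam*. The summed level of the list was 1633 and 1645 CPM in unloaded and 1604 and 1611 CPM in loaded cells. Nearly all of it was *Csf1r*, the receptor of CSF1, at 1573 and 1584 CPM in unloaded and 1558 and 1562 CPM in loaded cells. Without *Csf1r* the sums were 60.3 and 60.8 CPM in unloaded and 46.2 and 48.1 CPM in loaded cells, mostly *Cd14*, a receptor for endotoxin, which differed by -0.33 on the log2 scale (edgeR adjusted p = 0.204). *Cd68* and *Lyz2* had -0.80 and -0.34, the latter -0.03 without unloaded replicate 1 and -0.59 without unloaded replicate 2. The part of these genes in the values of the chemokines was not tested.

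The remaining marker lists had low levels. Among 5 osteoclast markers, *Ctsk* was the most abundant, at 5.13 and 4.85 CPM in unloaded and 7.93 and 7.35 CPM in loaded cells, and *Dcstamp*, *Ocstamp* and *Oscar* had no count. Their sum was 5.13 and 4.85 CPM in unloaded and 8.09 and 7.35 CPM in loaded cells. Among 5 endothelial markers, *Cdh5* was the most abundant, *Emcn* had no count, and the sum was 3.37 and 2.18 CPM in unloaded and 2.91 and 1.71 CPM in loaded cells. *Kdr*, chosen after its values were seen, had 0 counts in unloaded and 17 and 14 counts in loaded cells. Among 5 markers of epithelium and fat, *Krt8* was the most abundant, with 21 and 5 counts in unloaded and 13 and 8 counts in loaded cells, and *Epcam*, *Krt18* and *Adipoq* had no count. None of the 5 genes of these lists that passed the filter passed edgeR's test (2 had an unadjusted p under 0.05, as had 2333 of all 16269). Only *Ctsk* had an adjusted p from DESeq2, and it did not pass there.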

How the data were processed

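RNA-seq of 2 unloaded and 2 loaded samples was used. The authors deposited whole-number counts per gene without normalization, made, as stated, with HISAT2 2.1.0, StringTie 1.3.5 and prepDE on mm10. They are estimates from coverage, although counting-error intervals and the chi-square treat them as reads. Read length, strand setting and annotation are not stated. All 55450 gene identifiers were found in GENCODE M21, which supplied coordinates and exon lengths.

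In R 4.3.3, edgeR 4.0.16 kept 16269 genes (filterByExpr, count minimum 10), scaled them by TMM (factors 0.9832 to 1.009) and gave quasi-likelihood F tests, with p-values adjusted by Benjamini-Hochberg over these genes and a threshold of 0.01. SE is the size of the log2 fold change over the square root of F. The chi-square per degree of freedom, over 13324 genes of at least 1 CPM, was 19.9 between unloaded and 21.9 between loaded replicates, so replicates varied beyond counting error. Alternatives were DESeq2 1.42.0 (fitted without the filter), RLE and upper-quartile factors, no filter and 10 counts per library as a minimum. Further ones were a replicate block, each library left out, and an adjusted p under 0.05. Both tests were tested on simulated data.

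The members and lists were chosen with earlier results of these data known. Named were all members, every other ligand gene past the filter, of each other list the genes called plus those with the smallest p until 4 were named (mean of at least 1 CPM), the interferon genes, *Actb*, and the 3 genes nearest to each interferon-driven member. Other genes are marked in the text or illustrate counts at or near 0. ChIP-seq, Western blot and qPCR were not analysed here.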

Additional observations from a re-analysis of the deposited data

How the results depend on the processing

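The number of genes called was 16, and became 363 with DESeq2, 29 with at least 10 counts in every library, 0 with no filter on low counts, 147 at an adjusted p under 0.05 and 0 to 58 when each library was left out. The number of members called was 1, and became 2 with DESeq2, 2 at an adjusted p under 0.05, 0 with no filter and 0 to 1 when each library was left out. DESeq2 was fitted without the filter on low counts and gave a p-value for 26564 genes, against 16269 for edgeR. With no filter, edgeR also gave a p-value for 26564 genes, and called 0 genes and 0 members. Dropping the filter thus did not raise the counts with edgeR. DESeq2 gave an adjusted p for only 12484 genes. The part of this further selection in the moves to 363 genes and 2 members was not tested. With the replicate block, edgeR called 0 genes and 0 members (1839 genes had an unadjusted p under 0.05, and *Vcam1* had an edgeR adjusted p = 0.0196). The calls of *Cxcl10* at 0.01 and *Ccl5* at 0.05 were then lost at unchanged log2 fold changes of -1.53 and -0.83. Under the block, *Stat2* and *Irf9* also no longer passed 0.05 (edgeR adjusted p = 0.0822 and 0.1), at log2 fold changes of -0.81 and -0.79. The correlation of deviations of same-numbered libraries, over all tested genes, was -0.057. It showed no pairing on average and cannot exclude a pairing for some genes.

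With a library left out, the lone sample is assumed to vary like the other group. The log2 fold change then ranged from -0.12 to -0.02 for *Cxcl1*, -1.68 to -0.53 for *Cxcl3*, -0.04 to 0.08 for *Cxcl5*, 0.03 to 0.17 for *Cxcl12*, -0.22 to -0.08 for *Ccl2* and -1.23 to 0.91 for *Cx3cl1*, and the median from -1.00 to -0.83 for interferon-driven and -0.08 to 0.08 for other members. Of 62 named genes outside the members, 9 reversed in any alternative, all in leave-outs. Their ranges were -1.15 to 6.49 for *Ccl8* (no count in 1 unloaded library, so the value is no bound), -0.90 to 0.23 for *Ccl20*, -0.10 to 0.29 for *Ccl25*, -0.63 to 0.53 for *Ccl28*, -0.12 to 0.05 for *Ppbp*, -0.07 to 0.44 for *Ccr2*, -0.19 to 0.38 for *Ccr10*, -0.09 to 0.15 for *Actb* and -1.94 to 0.20 for *Zmynd15*. With the replicate block *Ccl8* (0.59) and *Ccl28* (-0.02) also reversed. Leaving out 1 library moved further small values without reversing them, such as *Adam17* (-0.27 to -0.02), *Rhbdf1* (-0.19 to -0.01), *Mmp14* (0.12 to 0.29), *Rc3h1* (0.09 to 0.23), *Khsrp* (-0.13 to -0.05) and *Ifnar1* (-0.29 to -0.10). The causes were not tested. Of the 62, 17 that did not pass with edgeR's main setting passed with DESeq2, which was fitted without the filter. With edgeR, 2 that had not passed in the main setting passed with at least 10 counts in every library. With no filter, 2 no longer passed. The part of DESeq2's own selection of genes for adjustment was not tested. RLE and upper-quartile factors moved none of the 62 across the threshold.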
